A study of Mus musculus with 4 samples.

Results

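Secreted antimicrobial and defence proteins of saliva were followed through 10 genes, Lpo, Lyz1, Ltf, Car6, Pip, Wfdc12, Bpifb1, Lcn2, Slpi and Zg16. They were chosen by symbol from a list of such proteins, and all 10 were among the 24411 gene symbols of the count table. RNA sequencing had been run on sublingual glands, which secrete mainly mucus, from female C57BL/6J-background mice carrying the Nkx2.3-/- genotype, at 32 weeks of age (2 libraries, replicates 3 and 4) and at 8 weeks of age (2 libraries, replicates 1 and 2). Every library came from the knockout, and no gland with intact Nkx2-3 was analysed here. Neither the knockout allele nor the number of animals behind a library is given in the sources used here, so p-values measure only the spread between these libraries, which may be technical. The question the design allows is whether levels differ between the ages within the knockout.

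Saliva protects the mouth partly through proteins that acinar and duct cells secrete. Lactoperoxidase (Lpo) uses hydrogen peroxide, made by dual oxidases, to turn thiocyanate into the antiseptic hypothiocyanite, while lysozymes cut the peptidoglycan wall of bacteria. Lactoferrin (Ltf) binds iron and lipocalin 2 (Lcn2) binds the siderophores with which bacteria collect it. Slpi and Wfdc12 are small whey-acidic-protein-domain inhibitors of proteases with antibacterial activity, and Pip, the prolactin-induced protein, is a small secreted glycoprotein that binds bacteria. Car6 is the secreted carbonic anhydrase of saliva and helps to buffer it. Bpifb1 belongs to the family of bactericidal/permeability-increasing-fold proteins and is known from airway mucus, and Zg16 is a lectin known from pancreatic zymogen granules and intestinal mucus.

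Total counts were 16484772 and 16111122 in the 32-week libraries and 12925869 and 14265485 in the 8-week libraries, and 16139 to 16484 genes had at least 1 count. Levels are given as CPM, read counts scaled to a common depth, with TMM, edgeR's correction for differences in library composition. The libraries most alike crossed the ages. Across 12810 genes, which are not replicates of each other, Pearson's r of log2 CPM was 0.984 for 32-week replicate 4 with 8-week replicate 1, against 0.979 within 32 weeks and 0.958 within 8 weeks. Mucous acinar markers had counts for 7 of 7 genes, Tff2 with 1 count in 1 library only, and their summed level was 63236 and 143595 CPM in the 32-week libraries and 155142 and 87706 CPM in the 8-week libraries. Serous and demilune markers (7 of 7 with counts, Bpifa2 and Lpo among them) summed to more than the mucous markers in every library. Markers of submandibular and parotid secretory cells (9 of 10 with counts, Prb1 at 0) summed to 34302 to 57605 CPM per library, most of it from the secretoglobins Scgb1b27 and Scgb2b27. Markers of squamous oral epithelium (3 of 5 with a count) and of airway secretory epithelium (2 of 5 with a count) summed to at most 1.17 CPM and 0.233 CPM in a library.

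Of the 10 defence genes, 8 were measured in every library, 1 was represented by a single read and 1 by none. Together they took 2.90% (95% Wilson interval 2.89 to 2.91%) and 3.13% (3.13 to 3.14%) of counts in the 32-week libraries, and 3.02% (3.01 to 3.03%) and 2.54% (2.53 to 2.54%) in the 8-week libraries. Such intervals cover counting error only. Nearly all of this came from Wfdc12, Pip and Car6, which made up 99.8% and 99.6% of the summed counts at 32 weeks and 99.7% and 99.4% at 8 weeks. By mean CPM over all genes, Wfdc12 ranked 13, Pip 14 and Car6 26, while Lpo came next among the 10 at rank 1388.

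Divided by transcript length, the order of the mean levels was Pip (22521 CPM per kb), Wfdc12 (18852), Car6 (941), Lpo (20.6), Slpi (14.1), Ltf (9.68), Lcn2 (4.61), Lyz1 (2.93), Zg16 and Bpifb1. The ranges over the 4 libraries overlapped between Pip and Wfdc12, and between each neighbouring pair from Lpo down to Lyz1. They did not overlap between Wfdc12 and Car6, between Car6 and Lpo, or between Lyz1 and Zg16. The length was that of the longest protein-coding transcript in GENCODE vM1, from 571 bases for Pip to 2926 bases for Lpo.

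**Figure D1:**
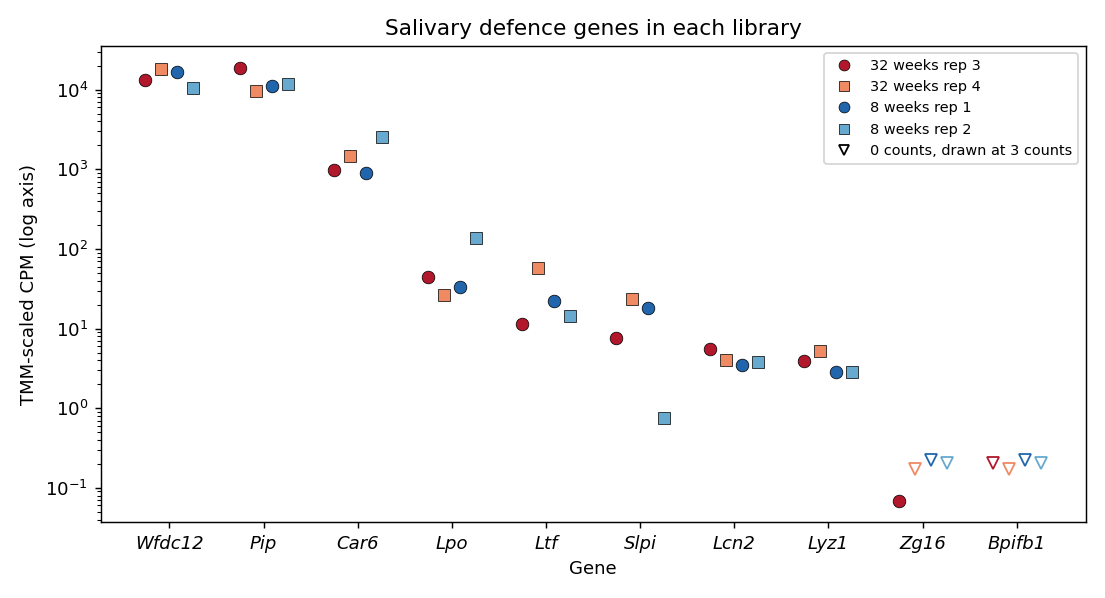
TMM-scaled CPM (log axis) of the 10 defence genes, ordered by mean level, with 1 point per library (red, 32 weeks; blue, 8 weeks). Open triangles stand for 0 counts and are drawn at the level of 3 counts. Wfdc12 and Pip lie between 9661 and 18902 CPM, Lcn2 and Lyz1 lie under 6 CPM, and the red and blue points of most genes are interleaved.

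The 300 bases around the RefSeq transcription starts (GRCm38.p6; 250 before and 50 after) are shown for Pip, Wfdc12 and Car6, because these 3 genes carried almost all reads of the 10. RefSeq start regions were matched for 9 of the 10 genes. Capitals mark every TATAAA on either strand (the TATA box sequence) and every CANNTG (the E-box, which reads the same on both strands and is bound by basic helix-loop-helix factors). The Pip region is chr6:41847299-41847598, plus strand, the Wfdc12 region chr2:164190509-164190808, minus strand, and the Car6 region chr4:150201086-150201385, minus strand, each read 5′ to 3′ along its gene.
Pip: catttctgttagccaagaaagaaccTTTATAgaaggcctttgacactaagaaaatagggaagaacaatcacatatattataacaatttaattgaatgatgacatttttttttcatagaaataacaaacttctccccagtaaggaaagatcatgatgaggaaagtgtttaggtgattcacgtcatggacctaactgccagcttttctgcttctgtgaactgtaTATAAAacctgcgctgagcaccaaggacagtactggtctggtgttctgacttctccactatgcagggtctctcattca
Wfdc12: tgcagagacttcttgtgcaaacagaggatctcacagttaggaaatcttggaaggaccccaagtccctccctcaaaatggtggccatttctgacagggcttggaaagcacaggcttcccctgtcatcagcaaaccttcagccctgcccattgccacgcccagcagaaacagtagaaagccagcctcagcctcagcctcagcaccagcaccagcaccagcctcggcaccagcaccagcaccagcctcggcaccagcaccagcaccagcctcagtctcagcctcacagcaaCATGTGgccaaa
Car6: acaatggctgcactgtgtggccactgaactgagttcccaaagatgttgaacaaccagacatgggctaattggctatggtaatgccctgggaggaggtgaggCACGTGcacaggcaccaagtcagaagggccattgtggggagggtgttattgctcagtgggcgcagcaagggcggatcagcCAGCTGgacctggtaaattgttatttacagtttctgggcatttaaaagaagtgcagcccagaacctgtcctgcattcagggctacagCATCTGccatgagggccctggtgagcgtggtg

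The Pip region held TATAAA on the plus strand with its first base 28 bases before the start, and once more on the minus strand. Of 32851 regions of the same length, 13.6% held TATAAA on either strand, and 2.32% held it on the plus strand starting 20 to 50 bases before the start. The regions of the other 8 matched defence genes did not hold those letters. The Car6 region held 3 E-boxes, the Wfdc12 region 1, after its start, and the Pip region none, while 72.3% of all regions held at least 1. TNAAGTG, a core sequence of NK2-class homeodomain proteins such as Nkx2-3, was searched on both strands and occurred among the 9 matched genes in the region of Lyz1 only, against 11.5% of all regions. In Lyz1 it overlapped a CANNTG. A match is a run of letters and shows no binding.

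By reads, Wfdc12 was the most abundant of the 10 genes and Pip followed. Wfdc12 (NCBIM37 chromosome 2, 164014967 to 164016344, minus strand) had 13101 and 18115 CPM in 32-week replicates 3 and 4, against 16689 and 10538 CPM in 8-week replicates 1 and 2. The ages overlapped, with one library of each age high and the other low. The mean was 15608 ± 3546 CPM at 32 weeks and 13613 ± 4349 CPM at 8 weeks (SD, n = 2 each), and the log2 fold change, 32 over 8 weeks, was 0.20 (SE 0.47, edgeR quasi-likelihood adjusted p = 0.999). Wfdc12 shares 125 exonic bases with A730032A03Rik on the opposite strand, and since the strand setting of the counting is not given, reads from that stretch cannot be assigned to a strand.

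Pip (chromosome 6, 41797548 to 41802061, plus strand) had 18902 and 9661 CPM in 32-week replicates 3 and 4, against 11111 and 11763 CPM in 8-week replicates 1 and 2. The 8-week libraries lay close together and between the 32-week libraries, which held both the highest and the lowest value. The log2 fold change was 0.32 (SE 0.48, 95% interval -0.81 to 1.45, edgeR adjusted p = 0.999). The ratio of Wfdc12 to Pip counts within a library, which no scaling between libraries affects, was 0.693 and 1.88 in 32-week replicates 3 and 4, against 1.502 and 0.896 in 8-week replicates 1 and 2. Which of the pair was more abundant therefore differed between libraries of the same age, at both ages.

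Car6 and Lpo were both highest in 8-week replicate 2. Car6 (chromosome 4, 149561124 to 149575441, minus strand) had 987 and 1479.7 CPM in the 32-week libraries, against 907 and 2527 CPM in the 8-week libraries. The 8-week libraries lay at either end and enclosed the 32-week libraries. Its log2 fold change was -0.48 (SE 0.49, edgeR adjusted p = 0.999), and without 8-week replicate 2 it was 0.45. Duct markers (7 of 7 with counts) were highest in the same library, with summed levels of 195 and 189.8 CPM in the 32-week libraries, against 164 and 473 CPM in the 8-week libraries. Fxyd2, a sodium pump subunit, made up most of the sum, whereas Ascl3 and Elf5 were highest in 32-week replicate 3. The part of duct cells in the Car6 values, or in those of other genes highest in 8-week replicate 2, was not tested.

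Lpo (chromosome 11, 87619930 to 87641791, minus strand) had 43.9 and 26.1 CPM in the 32-week libraries, against 33.4 and 138 CPM in the 8-week libraries. The first 3 of these 4 values lay within 1.68-fold of each other, and 8-week replicate 2 alone stood above them. Of the 8 genes tested, Lpo had the largest log2 fold change, -1.29 (SE 0.59, 95% interval -2.67 to 0.08), with an unadjusted p of 0.0618 and an edgeR adjusted p of 0.999. It was called without 8-week replicate 1 (log2 fold change -1.98, edgeR adjusted p = 0.0284), and without 8-week replicate 2 the log2 fold change was 0.07 (edgeR adjusted p = 0.987). Over all alternatives the adjusted p ranged from 0.00516 to 1, the lowest with total counts only.

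Duoxa2 and Duox2, which take part in making hydrogen peroxide, were also highest in 8-week replicate 2. Duoxa2, the maturation factor of dual oxidase 2, had 7.05 and 8.90 CPM in the 32-week libraries, against 3.98 and 23.6 CPM in the 8-week libraries (log2 fold change -0.79, SE 0.66, edgeR adjusted p = 0.999). Duox2, the oxidase itself, which was picked after its values were seen, had 1.18 and 2.56 CPM in the 32-week libraries, against 0.812 and 6.56 CPM in the 8-week libraries. The ages overlapped in both. Of the other dual oxidase genes, Duox1 was counted 6 and 4 times at 32 weeks, against 3 and 2 times at 8 weeks, and Duoxa1 4 and 8 times at 32 weeks, against 2 and 11 times at 8 weeks.

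Ltf and Lcn2, both of which withhold iron from bacteria, were detected at low levels and with different patterns. Ltf (chromosome 9, 110921796 to 110945270, plus strand) had 11.3 and 57.9 CPM in 32-week replicates 3 and 4, against 22.4 and 14.6 CPM in the 8-week libraries. The highest and the lowest library were both of 32 weeks, 5.14-fold apart. The log2 fold change was 0.91 (SE 0.64, edgeR adjusted p = 0.999). It was called without 32-week replicate 3 (1.66, edgeR adjusted p = 0.0173) and pointed the other way without 32-week replicate 4 (-0.71), and over all alternatives the adjusted p ranged from 0.0173 to 1.

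Lcn2 (chromosome 2, 32240153 to 32243317, minus strand) was counted 81 and 69 times in the 32-week libraries, or 5.60 and 4.01 CPM, against 47 and 55 counts in the 8-week libraries, or 3.47 and 3.80 CPM. Both 32-week libraries lay above both 8-week libraries, by a small margin. The log2 fold change was 0.40 (SE 0.31, 95% interval -0.32 to 1.12, edgeR adjusted p = 0.999).

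Ltf, Lcn2 and Slpi are also made by neutrophils, whose defining markers were at or near 0. Of 12 neutrophil markers, 11 were in the table, 8 had a count in some library, and Elane, Camp and Mmp8 had none. Their summed level was 1.24 and 1.69 CPM at 32 weeks, against 0.886 and 1.17 CPM at 8 weeks, most of it Csf3r, while S100a8 and S100a9 had at most 3 counts in a library. In a bulk sample, fewer cells of a type and less RNA per cell cannot be told apart.

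Slpi varied most among the libraries. Slpi (chromosome 2, 164179806 to 164214831, minus strand) was counted 109 and 401 times in 32-week replicates 3 and 4, or 7.53 and 23.3 CPM, against 242 and 11 counts in 8-week replicates 1 and 2, or 17.9 and 0.76 CPM. Replicate 4 and replicate 1, of different ages, were high, and 8-week replicate 2 was lowest, 23.5-fold below the other 8-week library. The log2 fold change was 0.74 (SE 1.01, 95% interval -1.63 to 3.11, edgeR adjusted p = 0.999). Without 8-week replicate 1 it was 4.34 (edgeR adjusted p = 0.0407), and without 8-week replicate 2 it was -0.19 (edgeR adjusted p = 0.984). Over all alternatives the adjusted p ranged from 0.0407 to 1.

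Plasma cell and B cell markers were low in the same library as Slpi. All 6 had a count, and their summed level was 528 and 818 CPM in the 32-week libraries, against 941 and 77.4 CPM in the 8-week libraries. Jchain, the joining chain of secreted IgA and IgM, carried most of it. A list of lacrimal gland markers, of which 4 of 5 were in the table and all 4 had a count, was also lowest in 8-week replicate 2, with sums of 33.1 and 206 CPM in the 32-week libraries, against 341 and 16.6 CPM in the 8-week libraries. Nearly all of it came from the secretoglobins Scgb2b2 and Scgb2b20, while Tlr11 and Esp15 had at most 6 counts and 1 count in a library. The part of either cell type in the Slpi values was not tested.

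Lyz1 was a minor lysozyme transcript beside Lyz2. Lyz1 (chromosome 10, 116724852 to 116729924, minus strand), the lysozyme that mouse Paneth cells of the intestine secrete, was counted 57 and 89 times in the 32-week libraries, or 3.94 and 5.18 CPM, against 39 and 41 counts in the 8-week libraries, or 2.88 and 2.83 CPM. The 32-week libraries did not overlap the 8-week libraries. The log2 fold change was 0.68 (SE 0.31, 95% interval -0.05 to 1.40, unadjusted p = 0.0632, edgeR adjusted p = 0.999), and it stayed between 0.47 and 0.87 over all alternatives.

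Lyz2, the lysozyme of macrophages and other myeloid cells, had 61.8 and 86.0 CPM in the 32-week libraries, against 102 and 53.4 CPM in the 8-week libraries. Lyz1 counts were 6.38% and 6.02% of Lyz2 counts at 32 weeks, against 2.82% and 5.30% at 8 weeks. The genes lie 5474 bases apart, 425 of their 447 coding bases are identical (95.1%), and 16.0% of the 50-base words of the Lyz1 transcript also occur in Lyz2. The counting of reads that match both is not given, so the Lyz1 counts are uncertain. Macrophage and monocyte markers, 8 of 8 with counts and including Lyz2, summed to 162 and 232 CPM at 32 weeks, against 229 and 140.03 CPM at 8 weeks, and their part in the Lyz1 counts was not tested. None of the other 9 defence genes shared a 50-base word with the protein-coding transcript of another gene.

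Bpifb1 and Zg16 were not detectable at this depth or were at a single read. Bpifb1 (chromosome 2, 154016554 to 154046105, plus strand) was at 0 in all 4 libraries. Taking 3 counts as the upper limit for a gene at 0, its level was at most 0.207 and 0.174 CPM in the 32-week libraries and 0.221 and 0.207 CPM in the 8-week libraries. Zg16 (chromosome 7, 134193670 to 134195491, minus strand) was seen as 1 count in 32-week replicate 3 (0.069 CPM). It had 0 counts in each other library, where the same limits hold.

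**Figure D2:**
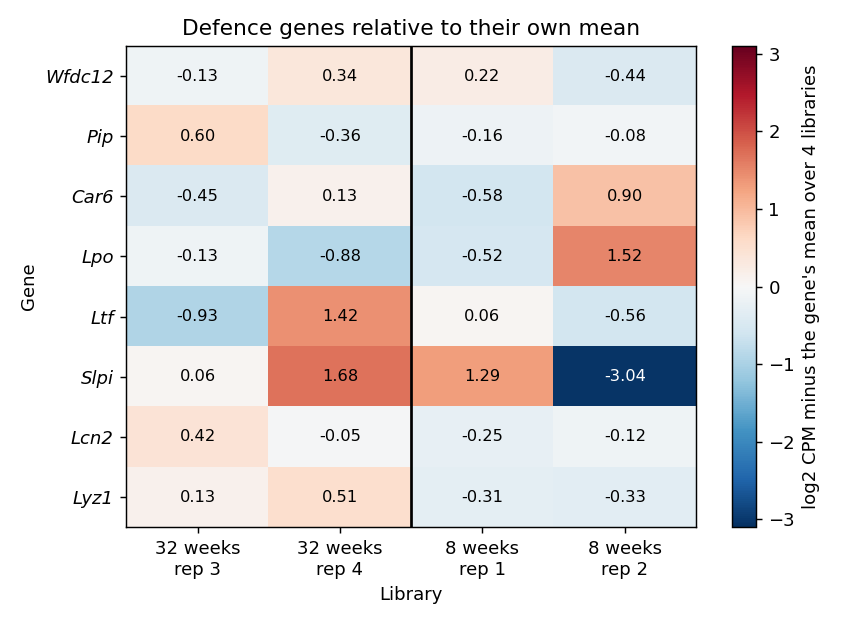
Log2 CPM of the 8 tested defence genes minus each gene's mean over the 4 libraries, with 32-week libraries left of the line and 8-week libraries right of it (colour scale and printed values in log2 units). Slpi spans -3.04 to 1.68 and Lpo -0.88 to 1.52, and in every row except that of Lyz1 the libraries of at least 1 age lie on opposite sides of 0.

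The defence genes differed between libraries of the same age. Of the 8 tested, Lpo, Car6 and Slpi differed by more than 2-fold between the 8-week libraries, as did 10.1% of all 12810 genes tested. Between the 32-week libraries Ltf and Slpi differed by more than 2-fold, as did 4.75% of all genes. The genes did not share a single pattern. Measured by the root mean square difference of centred log2 CPM over the 4 libraries, the closest pair was Pip and Lcn2 (0.190) and the farthest was Lpo and Slpi (2.77).

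By the edgeR quasi-likelihood test, none of the 8 defence genes kept by the low-count filter passed an adjusted p of 0.05 between 32 and 8 weeks. This is 0 of 8, beside 0 of 12810 genes tested (0%). At an unadjusted p under 0.05 it was again 0 of 8, beside 174 of 12810 (1.36%), and limma-voom called 0 of 8 as well. DESeq2, which tests without this filter, and edgeR with no low-count filter each called 0 of the 9 genes with a count, beside 0.0166% and 0.0387% of all genes. Both 32-week libraries lay above both 8-week libraries in 2 of 8 genes, Lyz1 and Lcn2, beside 14.4% of all genes tested, and in 0 of 8 they lay below, beside 14.2%. Log2 fold changes were positive in 6 of 8, with a median of 0.36, and among all genes in 6188 of 12810, with a median of -0.01. The median of the 8 genes was -0.17 without 32-week replicate 4. With 2 libraries at each age, the smallest p an exact permutation test of a single value can give is 0.333, so no such test could pass.

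**Figure D3:**
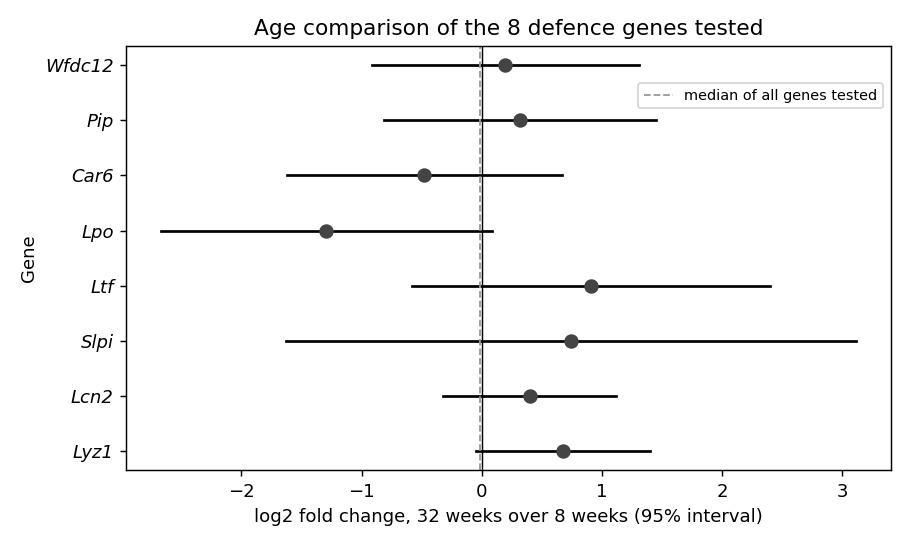
Log2 fold change, 32 weeks over 8 weeks, with its 95% interval from the edgeR model, for the 8 defence genes tested (rows). Every interval crosses 0, from the narrow ones of Lyz1 (-0.05 to 1.40) and Lcn2 to that of Slpi (-1.63 to 3.11), and the dashed line marks the median of all genes, -0.01.

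With single libraries left out, 0 to 2 of the defence genes were called. Without 8-week replicate 1, Lpo and Slpi passed, when 2.15% of all genes did. Without 32-week replicate 3, Ltf passed, when 0.0837% did. Without 8-week replicate 2 or 32-week replicate 4 none passed, when 0.0455% and 0.13% did. In each of these fits the remaining library of the reduced age is assumed to vary like the other group. With total counts only in place of TMM, Lpo passed (log2 fold change -1.40, edgeR adjusted p = 0.00516), when 0.0781% of all genes did.

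A wider list of 71 other secreted or mucosal defence genes was read from the same fit. Of these, 67 were in the table, 47 had at least 1 count and 29 were tested, of which 15 had positive and 14 negative log2 fold changes (median 0.07). None of the 29 passed in this edgeR fit. An unadjusted p under 0.05 was found for 1 of 29, Retnla, beside 174 of all 12810 genes tested (1.36%). The most abundant were Bpifa2 and Wfdc18, relatives of Bpifb1 and of Wfdc12. Bpifa2, the parotid secretory protein, which binds bacterial lipopolysaccharide, had 42620.3 and 13013 CPM in the 32-week libraries, against 15260 and 37648 CPM in the 8-week libraries. Wfdc18 had 46121 and 9576 CPM in the 32-week libraries, against 10303 and 33514 CPM in the 8-week libraries. In both genes 32-week replicate 3 and 8-week replicate 2 were high and the other library of each age low. The summed serous and demilune markers, which include Bpifa2, divided the libraries in the same way. Sums were 461946 and 183487 CPM in the 32-week libraries, against 161561 and 346318 CPM in the 8-week libraries. Most of each sum came from Dcpp1, Dcpp2, Dcpp3 and Bpifa2, which each divided the libraries this way. Lpo had the same order within each age, with 43.9 and 26.1 CPM at 32 weeks, against 33.4 and 138 CPM at 8 weeks. Only its value in 8-week replicate 2 stood above the rest. Bhlha15 and Aqp5 of the same list did not divide the libraries this way, and were lowest in 8-week replicate 2. Bhlha15 had 156 and 159 CPM at 32 weeks, against 183 and 120 CPM at 8 weeks. Aqp5 had 602 and 467 CPM at 32 weeks, against 540 and 242 CPM at 8 weeks. The part of these cells in values that divided the libraries this way was not tested.

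Pglyrp1, a peptidoglycan recognition protein that kills bacteria, was next, with 4431 and 1358 CPM in the 32-week libraries, against 1165 and 4765 CPM in the 8-week libraries (log2 fold change -0.03, SE 0.74, edgeR adjusted p = 0.999). It divided the libraries as Bpifa2 and Wfdc18 did. Tcn2, which binds vitamin B12, also had its higher values in 32-week replicate 3 and 8-week replicate 2, with 699 and 356 CPM in the 32-week libraries, against 359 and 732 CPM in the 8-week libraries. Pigr, the receptor that carries IgA into saliva, was steadier, with 1728 and 1822 CPM in the 32-week libraries, against 1668 and 1317 CPM in the 8-week libraries. Jchain had 512 and 799 CPM in the 32-week libraries, against 920.2 and 73.7 CPM in the 8-week libraries.

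Retnla, a resistin-like secreted protein of type 2 immune responses, had 30.9 and 52.0 CPM in the 32-week libraries, against 20.3 and 20.2 CPM in the 8-week libraries. Both 32-week libraries lay above both 8-week libraries (log2 fold change 1.04, SE 0.27, unadjusted p = 0.00566, edgeR adjusted p = 0.999). The same held for 6 of the 29 tested genes of the wider list, Retnla included, beside 14.4% of all genes tested. In 0 of the 29 did both 32-week libraries lie below both 8-week libraries, beside 14.2% of all genes tested. Spink5, a serine protease inhibitor of epithelia, had 86.7 and 24.7 CPM in the 32-week libraries, against 10.4 and 174 CPM in the 8-week libraries (log2 fold change -0.73, SE 1.05, edgeR adjusted p = 0.999). Its ages overlapped, and it was highest, with Lpo, Car6 and Duoxa2, in 8-week replicate 2. Without 8-week replicate 1, log2 fold changes were 3.15 for Jchain, -1.56 for Duoxa2 and -1.004 for Ly6d, and without 32-week replicate 3 that of Spink5 was -1.89. Without 8-week replicate 2 all of them pointed the other way (Jchain -0.48, Duoxa2 1.01, Ly6d 0.29, Spink5 2.42). Chia1, an acidic chitinase counted 673 times in 8-week replicate 1 and at most 2 times in any other library, did not meet the low-count filter. It passed with no such filter (edgeR adjusted p = 0.00381) and, lower at 32 weeks each time, without 8-week replicate 2 (edgeR adjusted p = 3.06e-05), without 32-week replicate 3 (edgeR adjusted p = 7.96e-22) and without 32-week replicate 4 (edgeR adjusted p = 1.37e-23). DESeq2 did not call it, and its reads came almost wholly from 1 library. Retnla did not pass under any alternative, with a log2 fold change between 0.61 (32-week replicate 4 left out) and 1.37 (32-week replicate 3 left out).

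**Figure D4:**
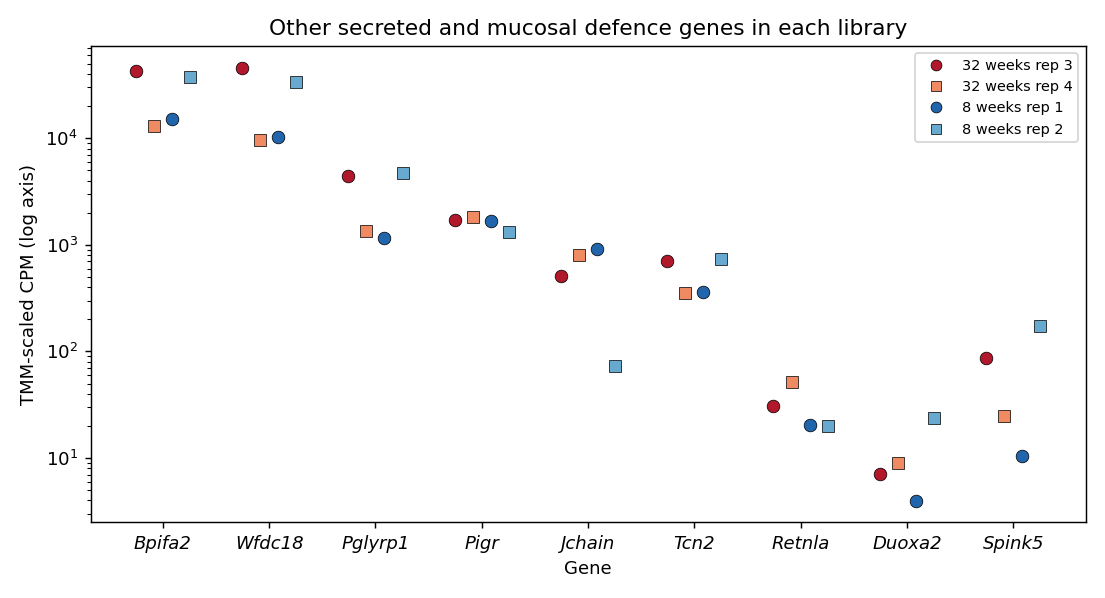
TMM-scaled CPM (log axis) of 9 genes of the wider defence list, with 1 point per library (red, 32 weeks; blue, 8 weeks). Shown are the 6 most abundant and the 3 with the largest absolute log2 fold changes among those with a mean of at least 10 CPM. For Bpifa2, Wfdc18, Pglyrp1 and Tcn2 the circle of 32 weeks and the square of 8 weeks lie high together, and Jchain is lowest in 8-week replicate 2 at 73.7 CPM.

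For each tested defence gene, the genes of nearest pattern among those with a mean of at least 10 CPM were found by the same root mean square difference over the 4 libraries. Wfdc12 lay nearest to Dut (0.0266), which removes dUTP, and Pip to Tmsb10 (0.0456), an actin-binding peptide. Car6 lay nearest to Psap (0.0645), a lysosomal activator precursor, and Lpo to Tmed9 (0.217), a cargo receptor between the endoplasmic reticulum and the Golgi. Psap had 265 and 370.3 CPM in the 32-week libraries, against 222 and 602 CPM in the 8-week libraries, and Tmed9 had 238 and 133 CPM in the 32-week libraries, against 159 and 504 CPM in the 8-week libraries. Lcn2 lay nearest to Atox1 (0.0315), Lyz1 to S100a6 (0.0439) and Ltf to Slc25a34 (0.383). Slpi lay nearest to Jchain (0.477) and then to Scgb1b3 (0.651), a secretoglobin with 20.1 and 69.3 CPM in the 32-week libraries, against 93.3 and 7.11 CPM in the 8-week libraries. These are descriptions over 4 libraries, each the nearest of 6684 or 6685 candidate genes.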

How the data were processed

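Per the submitters' processing notes, reads were aligned with STAR to mm9. No STAR version, counting tool, annotation, strand setting or rule for multi-mapping reads is given in the sources used here. Deposited values are raw read counts per gene symbol, 1 column per library, with depths of 12925869 to 16484772. Per the labels' protocols, RNA was taken from flash-frozen glands with Trizol, and Illumina TruSeq libraries were made.

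Counts were tested here in R 4.3.3 with edgeR 4.0.16 (quasi-likelihood test, TMM, default low-count filter by age, Benjamini-Hochberg adjustment over 12810 genes, threshold 0.05), with age as the only term. RLE factors, total counts, 2 other filters, omission of the 10 most abundant genes, DESeq2 1.42.0, limma-voom 3.58.1 and omission of each library were alternatives. Scripts were tested on simulated data. Positions and lengths come from GENCODE vM1 on NCBIM37, the assembly mm9 names, and start regions from RefSeq on GRCm38.p6. Log2 CPM for patterns used a prior count of 2. Named were all 10 members, the 6 most abundant and the 3 most different (mean of at least 10 CPM) of the wider list, and genes of nearest pattern. The members and lists were chosen with earlier results of these data known.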

Additional observations from a re-analysis of the deposited data

How the results depend on the processing

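No paired analysis was possible because the ages share no replicate numbers. The count of all genes called was 0 in the reported fit, 10 with total counts only, 7 with no low-count filter, 3 with DESeq2, and 6 to 285 with 1 library left out (285 without 8-week replicate 1). For the defence genes it was 0, against 1 with total counts only and 0 to 2 with 1 library left out. For the wider list it was 0, against 1 with no low-count filter and 1 to 3 with 1 library left out. The wider list's median log2 fold change was 0.07, against -0.080 with total counts only, -0.029 without the 10 most abundant genes, 0.18 with no low-count filter, 0.19 with DESeq2, and -0.19 to 0.22 with 1 library left out, and that of the defence genes was -0.17 to 0.45 with 1 library left out. The no-filter and DESeq2 fits tested 47 genes of the wider list instead of 29. With 1 library left out, log2 fold changes ranged from -1.98 to 0.072 for Lpo, -0.71 to 1.66 for Ltf, -1.03 to 0.45 for Car6, -0.23 to 0.73 for Pip, -0.090 to 0.57 for Wfdc12 and -0.30 to 4.34 for Slpi, so each of these 6 pointed both ways. Those of Lyz1 (0.47 to 0.87) and Lcn2 (0.15 to 0.63) stayed positive under all 11 alternatives. Under the 7 alternatives that kept all libraries, no defence gene changed direction. Where a call differed between settings, the cause was not tested. Counts of 39 to 89 in Lcn2 and Lyz1, and of 11 for Slpi in 8-week replicate 2, limit their precision.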

Other observations

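Of the wider list, 20 genes had 0 counts in every library and others had few, while Ccl28, a mucosal chemokine with antimicrobial activity, had 289.9 and 363 CPM in the 32-week libraries, against 372 and 309 CPM in the 8-week libraries. Camp, the cathelicidin, and the beta-defensins Defb3 and Defb4 had 0 counts in every library, which allows at most 0.207 CPM at 32 weeks and 0.221 CPM at 8 weeks. Defb1 was counted 2 and 5 times at 32 weeks, against 4 and 2 times at 8 weeks, and Defb14 1 and 3 times at 32 weeks, against 1 and 0 times at 8 weeks. Among relatives of Bpifb1, Bpifa1, Bpifb5 and Bpifb6 had 0 counts, and Bpifb4 was counted 6 and 1 times at 32 weeks, against 8 and 5 times at 8 weeks. The trefoil factors Tff1 and Tff3 had 0 counts. These genes were picked after their values were seen.

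Chia1, which digests chitin, came almost wholly from a single library, with 0 and 2 counts at 32 weeks, against 673 counts in 8-week replicate 1 and 1 count in 8-week replicate 2. Some markers of other salivary glands were highest in 8-week replicate 1 as well. Amy1, salivary amylase, had 2.005 and 1.63 CPM in the 32-week libraries, against 152 and 2.002 CPM in the 8-week libraries, and Smr3a had 0 counts in both 32-week libraries, against 674 and 0 counts in the 8-week libraries. In 8-week replicate 1, Car6 was at its lowest of the 4 libraries (907 CPM), near the 987 CPM of 32-week replicate 3. The part of other salivary glands in any of these values was not tested.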
